A study of Mus musculus with 4 samples.

Results

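Calmodulin was depleted with short hairpin RNAs (shRNAs) in mouse cortical neuron cultures, and 2 of the 4 samples of the series, numbered here repeat 1 and repeat 2, carried the shRNAs alone. They were chosen by their treatment label, infection with lentivirus expressing the shRNAs against calmodulin genes. The cultures came from newborn pups (P0) of a mixed SV129 and C57BL/6 background that were Syt1-deficient or wild type, and the labels do not say which array came from which genotype. Lentivirus was added at 5 days in vitro and RNA was taken at 14 to 15 days. The medium contained Ara-C, a drug that kills dividing cells. Controls received control lentivirus, so infection itself is common to all groups, and in the rescue samples the same shRNAs were delivered with a wild-type calmodulin that they do not target. The labels do not give the promoter that drove the shRNAs, the share of cells infected, or whether the repeats came from separate cultures. The spread that enters the p-values is therefore that among these samples, and may be technical in part or in whole.

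Each value was deposited as a linear ratio, the signal of a sample divided by that of the control hybridised in its own repeat on an Affymetrix mouse Gene 1.0 ST array, and is given here on the log2 scale: 0 is equality with control, 1 is 2-fold above it and -1 is 2-fold below. The ratios hold no levels, so the cell type on the label could not be checked against the level of its markers, and probe sets with little signal could not be recognised. After averaging per gene symbol there were 19938 genes, with medians of -0.02 in repeat 1 and 0.02 in repeat 2. The spread over genes was wider in repeat 2 (SD 0.349) than in repeat 1 (SD 0.242). Genes were tested with limma (two-sided) on all 4 columns, and adjusted p-values are Benjamini-Hochberg values over the 19938 genes with a threshold of 0.05; "rose" and "fell" are used only for genes past it.

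Calmodulin is a small protein that binds calcium and then switches on other proteins, among them the calmodulin kinases, the phosphatase calcineurin, certain adenylyl cyclases and ion channels. In neurons it links calcium entry during firing to changes at the synapse and to transcription in the nucleus. It is encoded by several genes. The knockdown against control shows which transcripts differ in cultures that carry the shRNAs. Whether a difference depends on calmodulin was not tested by this comparison alone.

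Calm2 and Calm3, targets of the shRNAs, were below control in both repeats. Calm2 was at -1.08 in repeat 1 and -1.72 in repeat 2 and fell: the 2 repeats averaged -1.40 with an SE of 0.18 (limma adjusted p = 0.0297). Read separately, the 2 probe sets of Calm2 gave -1.06 and -1.09 in repeat 1 and -1.56 and -1.87 in repeat 2. Calm3 was at -1.32 and -2.40 and missed the threshold (limma adjusted p = 0.0577; 0.000284 when the repeat was blocked). Both genes were lower in repeat 2 than in repeat 1. The rescue, which still carries the shRNAs, was also below control, at -0.84 and -1.28 for Calm2 and at -2.41 and -3.55 for Calm3, so Calm3 was lower there than in the knockdown of the same repeat. Of the calmodulin-like genes, Calml3 was at -0.13 and 0.02 and Calml4 at 0.36 and 0.70, neither past the threshold (limma adjusted p = 0.856 and 0.135; 0.79 and 0.0297 with the block).

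In all 61 genes passed, 0.306% of those tested: 27 rose (0.135%) and 34 fell (0.171%). Means ran from 0.80 to 2.49 among the genes that rose and from -0.79 to -1.61 among those that fell. The genes that rose included Syt2 and Vamp1 of vesicle release, Nefh and Map1a of the cytoskeleton and Cntnap1 and Cntn2 of the axon surface. Those that fell included the calcium sensor gene Hpca, the channel genes Cacna1i, Kcnq3 and Kcnq5, the scaffold gene Homer1, the guidance genes Slit1, Epha3 and Sema4a and the neuropeptide gene Cck. Blocking on the repeat takes what knockdown and rescue of a repeat share out of the residual spread. The tested mean is the same as without the block and still holds any error of the control arrays. That fit called 1074 genes (5.39%), 381 higher (1.91%) and 693 lower (3.48%), and all 61 remained among them. With the knockdown columns alone 12 passed, all among the 61: Syt2, Coro6, Vamp1, Nefh, Vwa5b2, Maged2, Flt3 and Map1a rose, and Tafa1, Nwd2, Pak6 and Hpca fell. Leaving out either rescue replicate is that same fit and also gave 12. Without knockdown replicate 1 the count was 1272 and without knockdown replicate 2 it was 108. These fits hold 1 knockdown sample, which is assumed to vary like the 2 rescue samples that give the spread, so their counts carry no information on the spread of the knockdown. When every probe set was tested, 0 of 35399 passed in limma (smallest adjusted p = 0.105), with 3873 at an unadjusted p under 0.05.

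Quantile normalization changed the balance of the directions. Over all probe sets it gave 28 higher and 66 lower genes, and over the genes, a setting chosen after seeing the data, 13 higher and 7 lower. Of the 61 genes, 60 and 19 remained in these fits.

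Syt2, a calcium sensor of rapid vesicle release, had the highest mean of the genes that rose, at 2.41 in repeat 1 and 2.57 in repeat 2 (limma adjusted p = 0.000475). Vamp1, the vesicle SNARE of many fast synapses, was at 1.38 and 1.61 (limma adjusted p = 0.0097). Nefh, the heavy neurofilament chain, was at 1.47 and 1.45, and Map1a, which binds microtubules in mature neurons, at 1.27 and 1.26. The repeats of these genes lay within 0.24 of each other, and none of their rescue values lay above 0.07. Of 20 neurofilament and microtubule-associated protein genes, Nefh and Map1a rose and Stmn4 fell, and the median was -0.05. In both repeats 6 were above control and 8 below, next to 30.5% and 31.1% of all genes.

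Several cell surface proteins of axons rose as well. Cntnap1, the Caspr protein of the paranode, was at 1.21 and 1.13 (limma adjusted p = 0.0140), and Cntn2, an axonal adhesion protein of the juxtaparanode, at 1.35 and 0.91 (limma adjusted p = 0.0397). Lgi3, a secreted ligand of the LGI family, was at 0.90 and 1.24 (limma adjusted p = 0.0297). Lgi1, a member of the same family, lay on the other side at -0.68 and -1.47 and missed the threshold (limma adjusted p = 0.0618; 0.00788 with the block). Of 17 genes of nodes, juxtaparanodes and axonal adhesion, these 3 rose and 0 fell, and the median was 0.03, next to 0.00 for all genes.

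Rasgrp2, an exchange factor that activates the small GTPase Rap on binding calcium and diacylglycerol, was at 1.52 and 1.02 (limma adjusted p = 0.0215). Flt3, a receptor tyrosine kinase best known from blood progenitors, was at 1.21 and 1.48 (limma adjusted p = 0.00998). Gpr165, an orphan receptor, was at 1.17 and 1.62 (limma adjusted p = 0.0202). Slc2a6, a member of the glucose transporter family, was at 1.08 and 1.07, and Phospho1, a phosphatase known from bone mineralization, at 1.05 and 1.15. Among genes with other roles, Coro6, an actin-binding coronin, was at 1.79 and 2.15 (limma adjusted p = 0.00392), the highest of all genes after Syt2 in repeat 1. Both knockdown values lay above both rescue values for each gene of this paragraph.

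Other genes that rose were Tmem25 (1.02 and 1.43), Vwa5b2 (mean 1.51), Maged2, a MAGE family gene (1.42 and 1.43), and Rwdd2a (1.15 and 0.96). Smaller rises, with means under 1, were those of Minar1, Pnma3, Pcolce2, which enhances procollagen processing, Wee1, a kinase that restrains cell division, Aldh1a7, Cav2, a caveolin, and Tspan2, a tetraspanin. Tspan2 had the smallest mean of the genes that rose, at 0.72 and 0.89 (limma adjusted p = 0.0491). A predicted gene completed the 27. Scn4b, a sodium channel beta subunit, and Peg10, an imprinted gene of retrotransposon origin, differed most between repeats. Scn4b was at 1.21 and 2.77 and Peg10 at 1.29 and 2.61, and their adjusted p-values were close to the threshold (0.0491 and 0.0412 in limma).

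Among the genes that fell, Hpca, the calcium sensor hippocalcin, was at -1.31 in both repeats (limma adjusted p = 0.0140). Homer1, a postsynaptic scaffold that is also induced by neuronal activity, was at -1.14 and -1.05. Ion channels that fell were Cacna1i, a T-type calcium channel (-1.12 and -1.10), and Kcnq3 and Kcnq5, subunits of the M-current potassium channel (-1.02 and -1.23, and -0.73 and -1.24). Their limma adjusted p-values were 0.0140, 0.0281 and 0.0491. Itpka, a calmodulin-activated inositol kinase of dendritic spines, was at -1.07 and -1.27 and missed the threshold (limma adjusted p = 0.0548; 0.0113 with the block). Kcnv1, a modifying potassium channel subunit, was at -1.44 and -1.07 and missed it too (limma adjusted p = 0.0618; 0.0027 with the block).

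Secreted and guidance molecules formed another group. Tafa1, a secreted chemokine-like protein, was at -1.37 and -1.85 (limma adjusted p = 0.00998), the lowest mean of all genes that passed. Slit1, a repulsive ligand for Robo receptors, was at -1.02 and -1.68, Epha3, an ephrin receptor, at -1.01 and -1.59, and Sema4a, a semaphorin, had a mean of -0.88. Their limma adjusted p-values were 0.0397, 0.0281 and 0.0415. Cck, the neuropeptide cholecystokinin, was at -0.99 and -1.51 (limma adjusted p = 0.0219), and Sstr2, a receptor for the neuropeptide somatostatin, at -0.88 and -0.95 (limma adjusted p = 0.0397). Wnt7b, a Wnt ligand, was at -1.09 and -1.01. Mdga1, which binds neuroligins, was at -0.85 and -1.48, and Cdh12, a type II cadherin, at -0.78 and -0.81. Every value in this paragraph lay below control.

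Further genes that fell act on small GTPases, phosphorylation and the cytoskeleton. Pak6, a p21-activated kinase, was at -1.35 and -1.39 (limma adjusted p = 0.00998). Ppm1e, a phosphatase that removes activating phosphates from calmodulin kinases, was at -0.81 and -1.08 (limma adjusted p = 0.0412). Rapgef5, an exchange factor for Rap, was at -0.73 and -1.30, and Dock9, an exchange factor for Cdc42, at -0.85 and -1.03. Stmn4, a stathmin that destabilises microtubules, was at -0.93 and -1.01. Nwd2 (-1.32 and -1.77) and Gpr26, an orphan receptor (-1.47 and -1.12), are not placed in this group and were among the lowest.

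The remaining genes that fell were Spink10, Phyhip, Klhl2, Fam131a, Slc29a4, a monoamine transporter, Prmt8, an arginine methyltransferase of brain, Vps37b, an ESCRT subunit, Ipcef1, Tmem74, Mpp2, a scaffold of the MAGUK family, Cpne5, a calcium-dependent phospholipid-binding copine, and Ago2. Ago2, the slicing Argonaute of RNA interference, had the smallest mean of the genes that fell, at -0.79 in both repeats (limma adjusted p = 0.0491). Its 2 rescue values were -0.67 and -0.50.

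**Figure D1:**
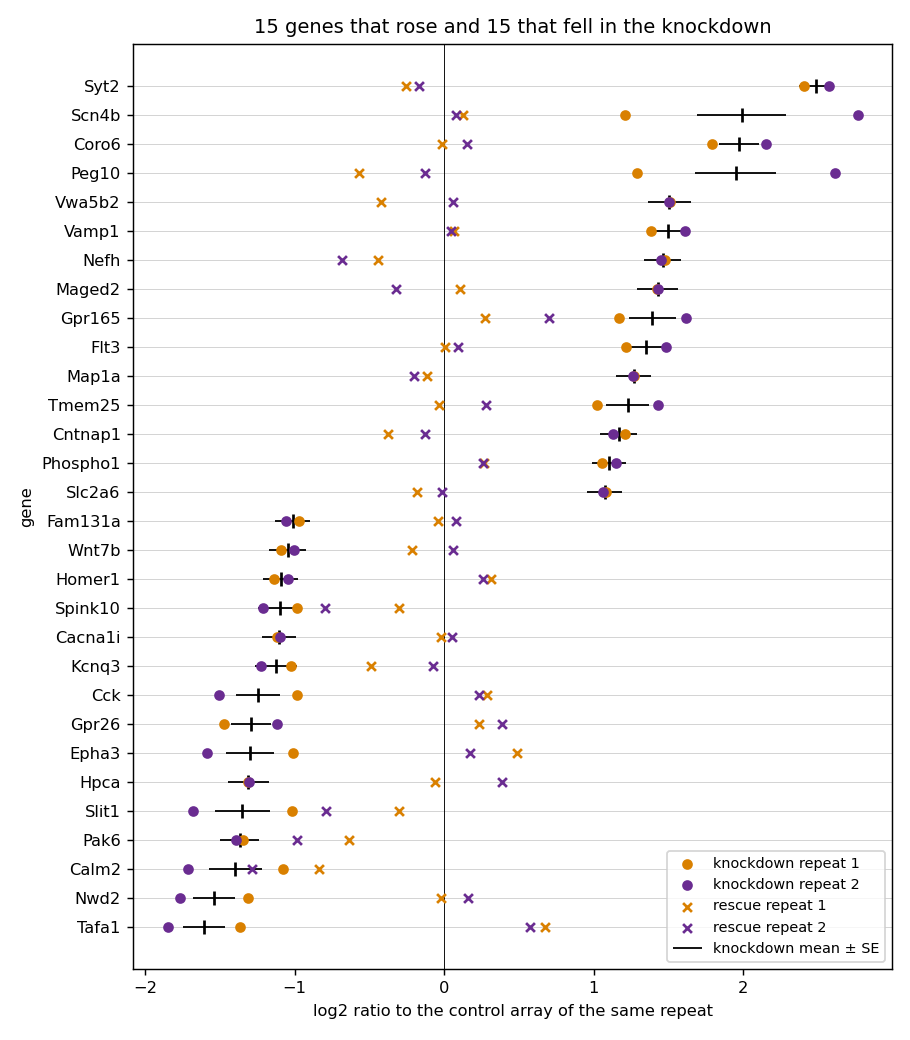
Log2 ratio to the control array of the same repeat for 15 genes that rose and 15 that fell in the knockdown, ranked within each direction by the smaller of their 2 repeat values and then drawn in order of their mean. Circles are the 2 knockdown repeats, crosses the 2 rescue repeats, and the black bar is the knockdown mean ± SE of the limma fit; Syt2 stands highest at 2.41 and 2.57, and Scn4b and Peg10 have the repeats furthest apart.

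The rescue shares its control arrays with the knockdown, so its values are set beside those of the knockdown and not used as a separate check. Rescue means of the 27 genes that rose ran from -0.56 (Nefh) to 0.49 (Gpr165), and those of the 34 that fell from -1.06 (Calm2) to 0.66 (Sema4a). The difference between knockdown and rescue passed the threshold for 13 of the 61 genes in the same limma fit, in which 14 genes (0.0702%) passed that comparison. In the blocked fit it passed for 37 of the 61, and for 123 of all 19938 genes. The 61 were chosen by their knockdown mean, which also enters this difference, so a larger share among them is in part built in. Some genes lay well below control in the rescue too. Pak6 was at -0.64 and -0.99 there, Cdh12 at -0.66 and -0.80, Vps37b at -0.78 and -0.50, Slit1 at -0.30 and -0.79 and Spink10 at -0.30 and -0.80. Their differences between knockdown and rescue were -0.56, -0.06, -0.30, -0.81 and -0.55, and none passed (the lowest limma adjusted p was 0.491, for Slit1, and 0.0621 with the block).

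The promoters of a few of these genes are printed to show how the letters of the cyclic AMP response element (CRE), where the calcium-responsive factor CREB can bind, lie in front of genes that moved. Each run is the 200 bases before the start, 5′ to 3′ on the strand of the gene, from RefSeq with the build GRCm38.p6, and capitals mark the short site TGACG on either strand (on the reverse strand it reads CGTCA). Syt2 is shown as the gene that rose most, and Homer1, Cck and Sstr2 as genes that fell and hold short sites within 100 bases of the start. They lie at chr1:134646412-134646611 (+ strand), chr13:93303557-93303756 (+), chr9:121495695-121495894 (-) and chr11:113619127-113619326 (+).
Syt2: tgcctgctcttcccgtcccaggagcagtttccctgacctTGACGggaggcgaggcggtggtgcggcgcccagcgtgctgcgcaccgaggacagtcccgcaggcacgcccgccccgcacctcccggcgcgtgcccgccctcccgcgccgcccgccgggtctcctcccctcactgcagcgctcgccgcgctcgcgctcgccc
Homer1: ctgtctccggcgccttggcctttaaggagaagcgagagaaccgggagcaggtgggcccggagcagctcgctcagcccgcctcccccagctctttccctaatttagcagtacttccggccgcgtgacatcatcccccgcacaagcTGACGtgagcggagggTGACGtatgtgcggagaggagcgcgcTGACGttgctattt
Cck: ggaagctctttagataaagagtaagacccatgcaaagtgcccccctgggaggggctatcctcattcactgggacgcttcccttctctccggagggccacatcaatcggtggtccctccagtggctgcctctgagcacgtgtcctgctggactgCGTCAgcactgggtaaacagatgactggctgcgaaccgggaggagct
Sstr2: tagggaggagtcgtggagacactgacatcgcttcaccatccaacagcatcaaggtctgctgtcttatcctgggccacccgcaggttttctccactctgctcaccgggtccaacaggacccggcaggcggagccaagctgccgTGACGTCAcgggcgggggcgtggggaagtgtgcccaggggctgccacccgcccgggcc

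Syt2 and Homer1 each have a further start in RefSeq whose 200 bases hold no short site. The Homer1 window holds 3 short sites, at -56, -40 and -14 from the start. In Sstr2 the short sites overlap to form the full element TGACGTCA at -58. Over windows from 250 bases before to 50 after the start, the short site was found for 4 of 22 genes that rose and had a promoter in the table (18.2%), for 8 of 23 that fell (34.8%) and for 28.0% of 15614 genes. The full element, which contains the short site, was found for 0 of 22, for 1 of 23 and for 2.72%. The printed genes that fell were chosen for a short site in the 100 bases before the start. In that window it was found for 2 of 22 that rose (Maged2 and Phospho1, 9.09%), 7 of 23 that fell (30.4%) and 15.0% of all genes. These are matches of letters and no test was made of them.

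**Figure D2:**
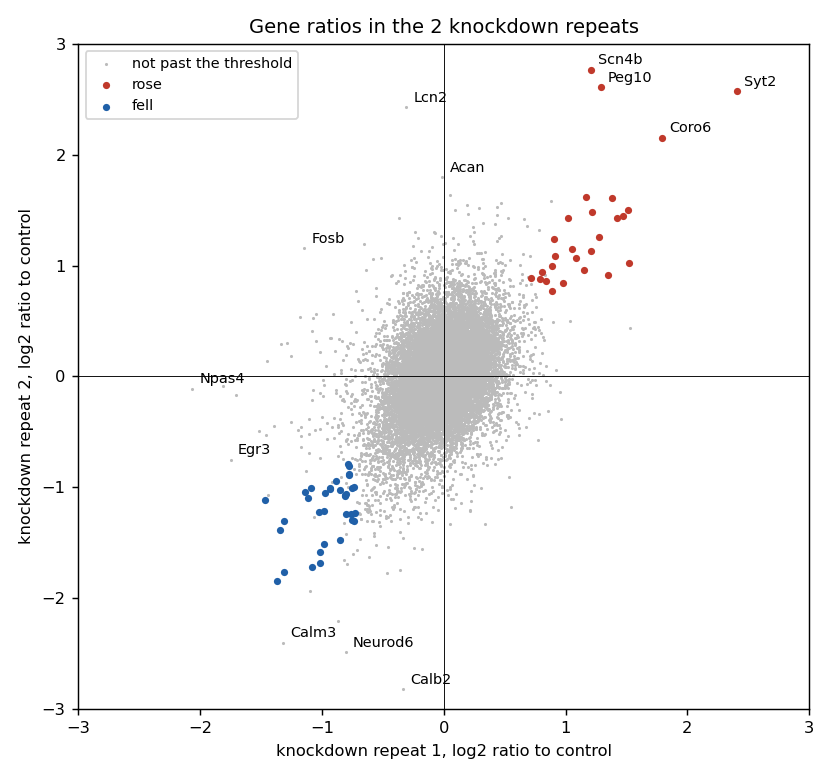
Log2 ratio to control in knockdown repeat 1 (horizontal) against knockdown repeat 2 (vertical) for 19938 genes. Red points are the 27 genes that rose, blue the 34 that fell and grey all others; Syt2 and Coro6 stand out in both repeats, Npas4 and Egr3 lie far left, and Calb2, Neurod6 and Lcn2 are far from 0 mainly in repeat 2.

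The repeats, each with a control array of its own, correlated at 0.400 across the 19938 genes, which are not independent replicates. Both values lay above control for 30.5% of genes, both below for 31.1% and on opposite sides for 38.3%. At least 2-fold above control were 0.1% of genes in repeat 1 and 0.527% in repeat 2, and at least 2-fold below it 0.246% and 0.963%. Genes at least 2-fold from control in both repeats numbered 32, of which 16 were higher (0.0802%) and 16 lower (0.0802%), and 28 of the 32 passed the limma threshold. The other 4 were Calm3, Itpka, Kcnv1 and Met. Met, the hepatocyte growth factor receptor of cortical projection neurons, was at -1.10 and -1.94 (limma adjusted p = 0.0548; 0.0139 with the block), with rescue values of -1.21 and -0.37. Of the 61 genes past the threshold, 46 were further from control in repeat 2, among them 29 of the 34 that fell. The spread over all genes was wider in repeat 2 as well (SD 0.349 against 0.242). The share of all genes further from control in repeat 2 was not counted, so the 46 are not a trait of the genes that passed.

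The genes furthest from control differed between the repeats. In repeat 1 the lowest genes were Npas4, an activity-induced transcription factor (-2.07, against -0.11 in repeat 2), Alkal2, a ligand of ALK receptors (-1.82 and -0.09), Egr3 (-1.75 and -0.75), Egr2 (-1.71 and -0.16) and Arc (-1.51 and -0.49). In repeat 2 they were Calb2, the calcium buffer calretinin (-2.82, against -0.33 in repeat 1), Neurod6, a transcription factor of cortical excitatory neurons (-2.49 and -0.81), Calm3, Nptx1, a pentraxin that gathers AMPA receptors (-2.20 and -0.87), and Met. None of these passed the threshold in the unblocked fit. Nptx1 was low in the rescue as well, at -1.17 and -1.62. The highest genes of repeat 2 were Scn4b, Peg10, Syt2, Lcn2 and Coro6, and of them Lcn2 alone did not pass.

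In 53 genes the repeats lay on opposite sides of control with at least 1 of them 2-fold away, and 37 of these were low in repeat 1 and high in repeat 2. Lcn2, the acute-phase protein lipocalin 2, was at -0.31 and 2.43, and Lbp, which binds bacterial lipopolysaccharide, at -0.37 and 1.43. Fosb was at -1.15 and 1.16, Pcsk1, a prohormone convertase, at -1.18 and 0.54, and Acan, the core protein of perineuronal nets, at -0.01 and 1.80. Zfp931 went the other way at 0.55 and -1.18. A mean over the repeats describes none of these genes.

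Activity-regulated genes followed the same division. Over all genes the medians were -0.02 in repeat 1 and 0.02 in repeat 2. Of 21 immediate early genes, the transcription factors and others switched on first by firing, 19 were below control in repeat 1 and 8 in repeat 2, with medians of -0.60 and 0.15. Of 22 late activity genes, 19 were below control in repeat 1 and 8 in repeat 2, with medians of -0.76 and 0.22. In the rescue the medians were 0.25 and 0.32 for the immediate early genes and 0.49 and 0.24 for the late ones. Homer1 alone fell over both lists. Besides it, the block called 5 immediate early genes and 1 late gene lower. Egr3 had the lowest mean of the immediate early genes (limma adjusted p = 0.0668; 0.00327 with the block), and Nptx1 that of the late genes (limma adjusted p = 0.0668; 0.00262 with the block).

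Genes of the interferon response and antigen presentation were mostly above control in repeat 2, where the median over all genes was 0.02. Of 26 measured, 25 were above control in repeat 2 and 10 in repeat 1, with medians of 0.56 and -0.05, and 0 passed in limma (1 with the block). Cxcl10, a chemokine, was at -0.10 and 1.17, Ifit3 at -0.01 and 0.96, and Psmb9, a subunit of the immunoproteasome, at 0.02 and 0.88. Rescue medians were 0.06 and 0.04. Of 29 genes of ER stress and the amino acid response, 20 were above control in repeat 2 and 9 in repeat 1 (medians 0.24 and -0.12), with Slc7a3, an arginine transporter, at 0.19 and 1.55 in the knockdown and at 0.98 and 1.74 in the rescue. Fibroblast and mural cell markers were above control for 15 of 16 in repeat 2 and 11 in repeat 1 (medians 0.43 and 0.04), and Fn1, fibronectin, was at 0.01 and 1.20. The part of other cells in the repeat 2 values was not tested.

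**Figure D3:**
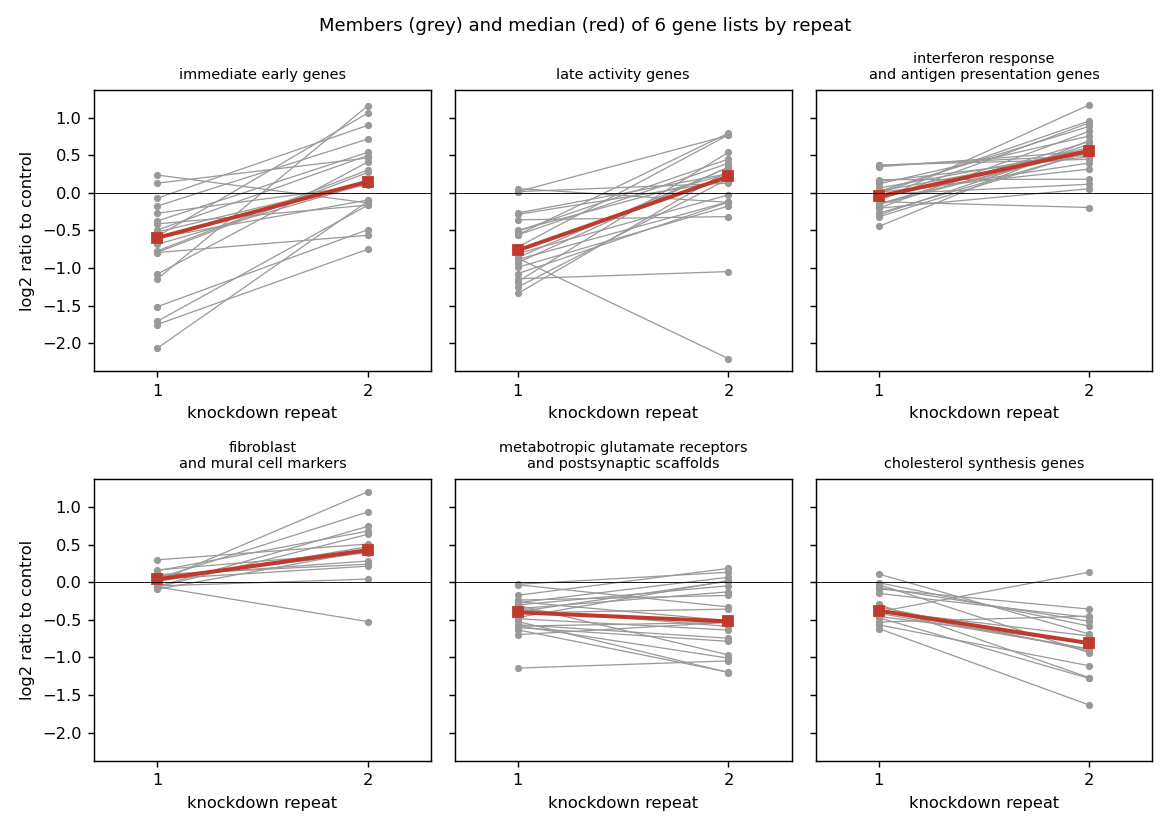
Log2 ratio to control of the measured members of 6 gene lists in knockdown repeat 1 and repeat 2 (grey lines join the values of a gene, red squares and line are the list median). Immediate early and late activity genes lie mostly below 0 in repeat 1 and around it in repeat 2, interferon and fibroblast lists lie near 0 in repeat 1 and above it in repeat 2, and the scaffold and cholesterol lists have medians below 0 in both.

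The gene lists below are described by counts and medians and were not tested as sets. Beside them stand a median of 0.00 over all genes and the shares in both repeats, 30.5% above control and 31.1% below. Among calcium sensors related to Hpca, 1 of 14 fell and 11 were below control in both repeats (median -0.51). Ncald, neurocalcin delta, was at -0.54 and -0.67 (limma adjusted p = 0.0861; 0.0241 with the block) and Kcnip2, an auxiliary protein of A-type potassium channels, at -0.47 and -1.77 (0.104; 0.0201 with the block). Of 30 enzymes that calmodulin regulates and their partners, 0 rose and 0 fell, 19 were below control in both repeats and the median was -0.22; the block called 1 higher and 6 lower. The lowest mean was that of the calcineurin gene Ppp3ca, at -0.82 and -1.66, which just missed the threshold (limma adjusted p = 0.05004, and 0.00767 with the block). Its rescue values were -1.42 and -1.35. Camk2a, the main calmodulin kinase of forebrain synapses, was at -0.44 and -1.10, and Camk4, its nuclear relative, at -0.44 and -0.98. Rescue values were -0.42 and -0.29 for Camk2a and -0.09 and -0.04 for Camk4. Of the 30, 4 were above control in both repeats. Among 10 calmodulin reservoir proteins, which hold calmodulin at low calcium, 0 passed in limma and 3 were lower with the block, among them Gap43 at -0.54 and -0.55.

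Calcium-regulated transcription factors lay near control as a list (17 genes, median -0.05). In both repeats 7 were above control and 6 below, 0 passed in limma, and the block called 1 higher and 2 lower. The higher one was Nfatc2, at 0.11 and 0.77 (limma adjusted p = 0.332, and 0.0476 with the block). Mef2c was the lowest at -0.62 and -0.89 (limma adjusted p = 0.0837; 0.0231 with the block), followed by Srf at -0.41 and -0.59 (0.115; 0.0388 with the block).

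Of 17 voltage-gated calcium channel subunits, Cacna1i fell, 16 were below control in both repeats and the median was -0.36. The exception was Cacna1g, another T-type channel, at 0.67 and 0.65 (limma adjusted p = 0.139; 0.036 with the block). Of 38 potassium and HCN channel subunits, Kcnq3 and Kcnq5 fell, 23 were below control in both repeats and the median was -0.39; the block called 16 lower and 0 higher. Kcnb2, a delayed rectifier, was at -0.82 and -1.32 (limma adjusted p = 0.0618; 0.0163 with the block). Of 9 sodium channel subunits, Scn4b rose, 3 were above control in both repeats and 4 below, and the median was -0.09; the lowest was Scn3a at -0.47 and -1.11.

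Metabotropic glutamate receptors and scaffolds had a median of -0.43, with 17 of 22 below control in both repeats, 0 above in both, and Homer1 past the threshold (11 lower with the block). Ionotropic glutamate receptor subunits had a median of -0.41, with Grin2a, an NMDA receptor subunit of mature synapses, at -0.61 and -1.17 (limma adjusted p = 0.0618; 0.0114 with the block). GABA and glycine receptor genes had a median of -0.09, with 0 of 15 past in limma and 2 lower with the block, among them Gabbr2, a GABA-B receptor subunit, at -0.39 and -0.80.

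Axon guidance genes had a median of -0.35. Of 48, Slit1, Epha3 and Sema4a fell and 0 rose, 31 were below control in both repeats and 8 above, and the block called 19 lower and 1 higher. Sema3a, a secreted repellent, was at -1.01 and -0.73 (limma adjusted p = 0.0861; 0.0231 with the block). Cadherins had a median of -0.27, and Cdh12 fell. Vesicle fusion and active zone genes had a median of -0.41, with 26 of 37 below control in both repeats, although Syt2 and Vamp1 of this list rose and 0 fell (4 higher and 16 lower with the block).

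Cholesterol synthesis was the list with the lowest median of those with 5 or more measured genes (-0.55; -0.38 in repeat 1 and -0.81 in repeat 2). Of 17 measured, 0 passed in limma and 10 were lower with the block, and 15 were below control in both repeats. Cyp51, lanosterol demethylase, was at -0.30 and -1.27 (limma adjusted p = 0.173; 0.0133 with the block). Srebf2, the transcription factor that drives this pathway, was at -0.38 and -0.59 (0.123; 0.0425 with the block). The list of SREBP pathway and fatty acid synthesis genes, which holds Srebf2, had a median of 0.02. In both repeats 6 of its 20 genes were below control and 5 above, and the block called 1 higher and 1 lower.

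Imprinted genes had a median of 0.26 over 19 genes (0.17 in repeat 1, 0.39 in repeat 2), with 9 above control in both repeats, 3 below in both and 7 on opposite sides. Peg10 rose, and 6 were higher with the block and 0 lower. Peg3, a zinc finger gene, was at 0.65 and 1.10 (limma adjusted p = 0.0837; 0.00701 with the block), Magel2 at 0.44 and 1.22 (0.0982; 0.0145 with the block) and Rian, a long non-coding RNA of the Dlk1 region, at 0.65 and 0.71 (0.0857; 0.0184 with the block). Among p53 targets and apoptosis genes, 12 of 20 were above control in both repeats and 1 below (median 0.21; 2 higher with the block). Fas, a death receptor, was at 0.34 and 1.13 (limma adjusted p = 0.118; 0.0271 with the block).

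Markers of several cell types were off control too. In RNA from whole cultures, fewer cells of a type and less RNA per cell cannot be told apart. Pan-neuronal markers had a median of -0.25 (-0.07 in repeat 1, -0.42 in repeat 2). In both repeats 12 of 18 were below control and 2 above, and 0 passed in limma. The block called 1 higher and 2 lower. Eno2 lay above control at 0.38 and 0.60 (limma adjusted p = 0.135, and 0.0363 with the block). Dcx, a microtubule protein of immature neurons, was at -0.24 and -1.55, and Rbfox3, the NeuN antigen, at -0.50 and -0.79 (limma adjusted p = 0.108; 0.0371 with the block). Interneuron markers had a median of 0.07 in repeat 1, where 8 of 20 were below control, and of -0.62 in repeat 2, where 19 were; their rescue medians were -0.33 and -0.60. Cck, also present in excitatory neurons, was the one that fell. Gad1, which makes GABA, was at -0.65 and -1.14 (limma adjusted p = 0.0583; 0.00942 with the block), and its rescue values were -0.84 and -0.91. Projection neuron factors had medians of -0.06 and -0.41 in the 2 repeats, with Bcl11a at -0.45 and -1.27 (limma adjusted p = 0.0986; 0.0296 with the block).

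Astrocyte markers were above control in both repeats for 16 of 18 genes (median 0.27; 0.24 and 0.34 in the repeats), with 0 past in limma and 3 higher with the block. Oligodendrocyte lineage and endothelial markers had medians of 0.02 and 0.07, and microglia markers -0.34 in repeat 1 and 0.12 in repeat 2. No list of these cell types had a member past the limma threshold (0 of 18, 16, 14 and 17; the block called 0 in the last 3). Proliferation genes had a median of -0.04. The part of these cell types in the neuronal lists was not tested.

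Ribosomal protein genes had medians of 0.03 and 0.04 in the 2 repeats (33 genes) and oxidative phosphorylation genes 0.03 and -0.08 (42 genes), and 0 members of either passed in limma or with the block. Glycolysis genes had a median of 0.02 and heat shock genes one of 0.02. Other housekeeping lists lay further below control. Proteasome subunits had a median of -0.14, with 18 of 31 below control in both repeats, and vacuolar ATPase subunits one of -0.18, with 11 of 17 below in both. In the last list Atp6v1e1 was the lowest at -0.63 and -1.31 (limma adjusted p = 0.0668; 0.00786 with the block), with rescue values of -0.62 and -0.81.

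**Figure D4:**
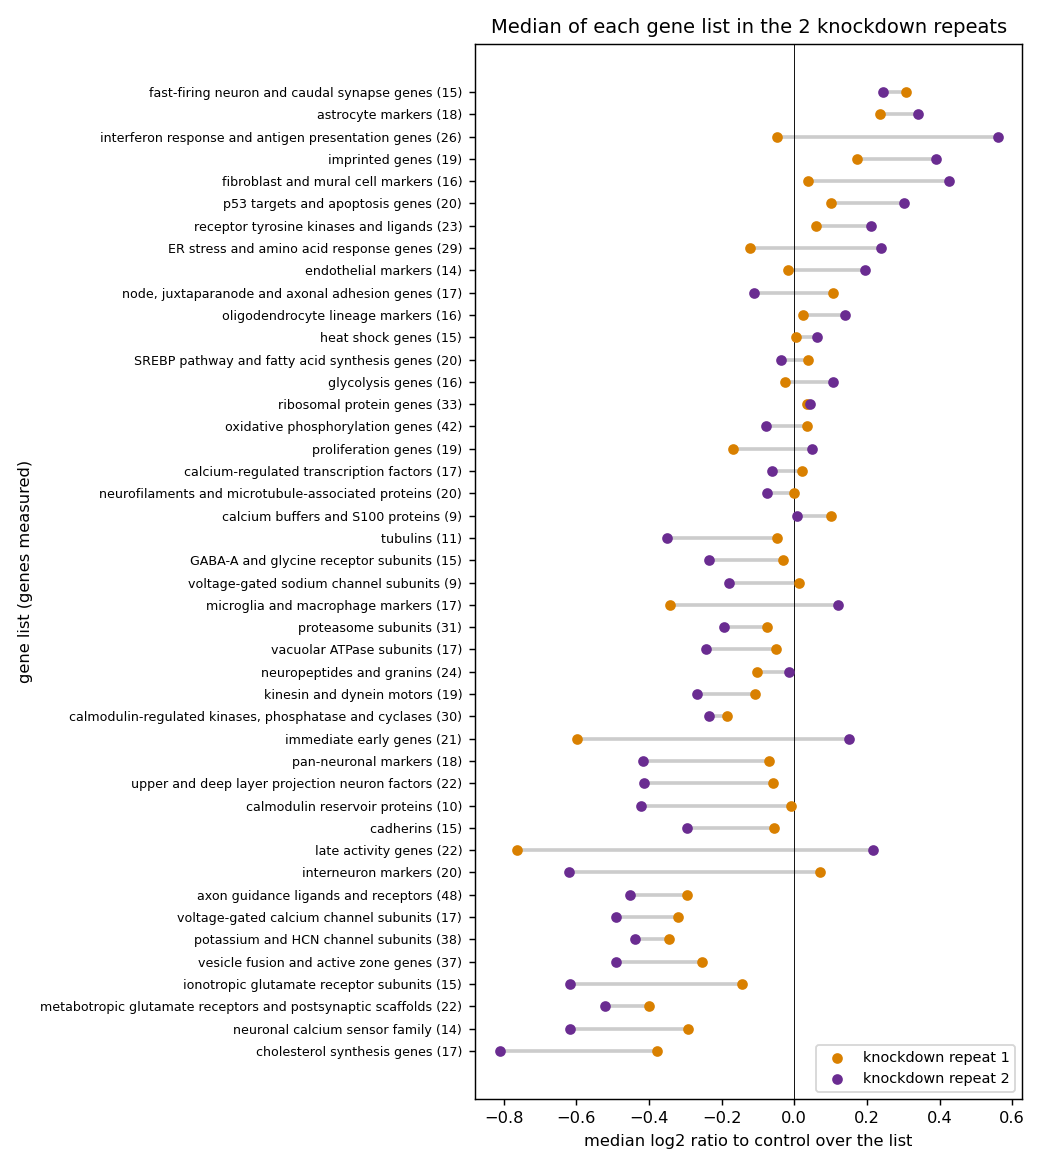
Median log2 ratio to control of each gene list with at least 5 measured genes, in knockdown repeat 1 (orange) and repeat 2 (purple), ordered by the median of the gene means, with the number of genes measured in brackets. Cholesterol synthesis genes are lowest (-0.38 and -0.81), and the late activity genes have the repeats furthest apart (-0.76 and 0.22).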

How the data were processed

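The deposited table held, per the labels, ratios of each sample to the control of its repeat. The authors' background correction, probe summary and normalization are steps not given in the sources used here. Signals of the 2 control arrays were not analysed here, and no per-sample column was left over. Of 35399 probe sets, 21789 had exactly 1 gene symbol in the platform annotation and were averaged on the log2 scale into 19938 genes with no further centring. limma 3.58.1 (R 4.3.3) was fitted with a coefficient for each group over 4 columns (2 residual and 6.11 prior degrees of freedom). The method was tested on simulated data. The number of arrays limits the precision.

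Knockdown and rescue of a repeat carry 1 date in the labels, which pairs them. Their deviations from the group means correlated at 0.305. Both are ratios to the same control array, so its error enters both deviations and adds to this value. The repeat was also fitted as a block. Members, the 45 lists (876 of 954 genes measured) and motifs were chosen with earlier results of these data known, and 2 genes not known as imprinted were taken out of that list after values were seen. Genes named were the calmodulin genes, all that passed, those at least 2-fold in both repeats, the 5 furthest per direction and repeat, 6 of opposite sign and up to 4 per list; 2936 predicted, receptor and small RNA genes were counted, not named. Alternatives were the block, other columns, normalization, probe set rules, the variance prior and leaving out each sample.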

Additional observations from a re-analysis of the deposited data

Results flagged for a closer look

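The platform annotation does not list 11989 probe sets, and these entered no comparison by gene. Of them, 10 were at least 2-fold above control and 7 at least 2-fold below it in both knockdown repeats. They were flagged because they lay outside the genes tested, and whether they carry signal was not tested. The same count in the rescue was 3 above and 7 below. For the 21789 probe sets with exactly 1 symbol, the knockdown counts were 17 above and 17 below. Read 1 repeat at a time, 362 of the unlisted probe sets reached a log2 ratio of 1 or more in repeat 1, and 95 in repeat 2. The repeats of these probe sets correlated at 0.0415, against 0.386 for the 21789 with exactly 1 symbol, and their SDs were 0.414 and 0.403. No probe set with several symbols was 2-fold from control in both repeats (0 of 1621 in each direction). In the fit of every probe set, which held the unlisted ones too, 0 of 35399 passed in limma.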

How the results depend on the processing

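For the knockdown against control, 61 genes passed; the count was 1074 with the replicate block, 12 with the knockdown columns alone, 94 after quantile normalization, 20 after quantile normalization over the genes (chosen after seeing the data), 0 with every probe set tested, and from 12 to 1272 when 1 sample was left out. For the knockdown against the rescue, 14 passed; the count was 123 with the block, 5 and 2 after the same normalizations, 4 with the median over probe sets, 4 with robust eBayes, 4 when each probe set with 1 symbol was tested (chosen after seeing the data), 0 with every probe set (1317 at an unadjusted p under 0.05 in limma), and from 0 to 350 when 1 sample was left out (990 and 897 at an unadjusted p under 0.05 without rescue replicate 1 and 2). Genes 2-fold from control in both repeats numbered 51 among all probe sets, and the correlation between repeats was 0.199 there. The causes were not tested. A fit without a knockdown replicate tests 1 knockdown sample with the spread of the rescue samples.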
